A study of Mus musculus with 8 samples.

Results

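Urea cycle and amino acid catabolism in mouse liver was followed through 46 genes, chosen by name from the pathways in which the liver disposes of amino acid nitrogen and turns the carbon skeletons into fuel or glucose. Each gene was read from one Affymetrix probe set, the one with the highest mean over the 8 arrays among the probe sets named for exactly 1 gene. On that rule 44 of the 46 genes had a probe set, of 18193 genes in the whole table, and 43 of the 44 were bright enough to be tested, of 11986 genes tested. Gls2 and Sdsl had no such probe set and were not analysed here, and Bcat2 was dim, between 5.06 and 5.37 on the log2 scale on all 8 arrays, and was not tested.

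The series measured RNA from whole liver of 6-week-old mice in 2 groups, with 1 array for each of 3 control mice, whose genotype is labelled WT, and each of 5 POMCMfn2KO mice. The study's title concerns α-MSH, stress of the endoplasmic reticulum in the hypothalamus and glucose production by the liver, and POMCMfn2KO, which the labels do not spell out, is taken here from general knowledge of this mouse model to mean that mitofusin 2, a protein of mitochondrial fusion and of contacts between mitochondria and the endoplasmic reticulum, is deleted in pro-opiomelanocortin neurons of the hypothalamus. Both groups shared a mixed background of C57Bl/6J, FVB/N and 129, standard chow and water without restriction, and 12 h of light and 12 h of dark. The labels name the animals of a group as biological replicates and give no Cre driver, littermate status, sex, hour of collection or array batch. On that reading the deletion is not in hepatocytes, and the Mfn2 level of the liver would not check the genotype.

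Amino acids that are not used for protein lose their nitrogen in the liver. Aminotransferases pass amino groups to glutamate or aspartate, glutamate dehydrogenase releases ammonia, and the urea cycle joins ammonia and aspartate nitrogen into urea, beginning with carbamoyl phosphate synthetase in the mitochondrion. The periportal hepatocytes, which meet the blood first, carry out most ureagenesis, and a thin layer of hepatocytes around the central vein takes up what ammonia is left and fixes it as glutamine. The carbon skeletons of alanine, aspartate, glutamine and several others can become glucose, and many of the enzymes are known to be induced by glucagon, glucocorticoids and fasting.

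Only 4 of the 43 tested genes passed the test between the groups, and their promoters are shown first because they are the members on which the results turn. The promoter table held entries for 35 of the 46 genes and for 3 of these 4. The sequences are the 250 bases before the annotated start in RefSeq on GRCm38.p6, written 5′ to 3′ on the gene's own strand, at chr1:153899679-153899928 on the plus strand for Glul, chr17:83846791-83847040 on the minus strand for Haao and chr17:31637206-31637455 on the minus strand for Cbs. Capitals mark each match, on either strand, to one of 8 short motifs.
Glul: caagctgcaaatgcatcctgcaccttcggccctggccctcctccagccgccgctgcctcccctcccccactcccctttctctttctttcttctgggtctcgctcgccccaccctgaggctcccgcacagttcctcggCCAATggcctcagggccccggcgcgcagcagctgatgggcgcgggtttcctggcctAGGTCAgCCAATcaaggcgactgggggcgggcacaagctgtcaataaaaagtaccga
Haao: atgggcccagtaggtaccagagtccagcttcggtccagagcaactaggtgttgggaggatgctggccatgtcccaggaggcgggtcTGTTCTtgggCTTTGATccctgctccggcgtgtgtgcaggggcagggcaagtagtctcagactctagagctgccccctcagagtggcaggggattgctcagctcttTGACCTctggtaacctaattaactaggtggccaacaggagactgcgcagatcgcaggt
Cbs: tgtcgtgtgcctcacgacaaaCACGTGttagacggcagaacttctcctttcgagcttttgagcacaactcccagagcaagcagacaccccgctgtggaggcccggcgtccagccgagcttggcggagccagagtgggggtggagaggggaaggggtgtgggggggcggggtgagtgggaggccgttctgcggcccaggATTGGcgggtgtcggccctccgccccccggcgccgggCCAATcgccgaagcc
In Glul the capitals are an AGGTCA nuclear receptor half-site and a pair of CCAAT boxes. In Haao they are TGTTCT, which is the glucocorticoid receptor half-site AGAACA read on the other strand, the T-cell factor core CTTTGAT, and TGACCT, which is AGGTCA on the other strand. In Cbs they are the E-box CACGTG, and CCAAT once as ATTGG and once as written. The other motifs searched, the cAMP response element half-site TGACG, the C/EBP core TTGCNNAA and the D-box TTATGTAA, had no match in these windows, and none of the searched motifs overlap another in the sequences shown. AGGTCA was found in 14 of the 35 member promoters, or 40%, and in 14.0% of all 32851 promoters of the same length. CCAAT was found in 17 of the 35 (48.6%) and in 33.8% of all promoters, CTTTGAT in 3 (8.57%) and 3.21%, AGAACA in 3 (8.57%) and 16.1%, TGACG in 3 (8.57%) and 17.8%, TTGCNNAA in 4 (11.4%) and 9.56%, CACGTG in 2 (5.71%) and 6.02%, and TTATGTAA in 0 and 0.819%. These counts describe letters, and no binding was measured.

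The arrays were alike in overall level, with medians between 5.79 and 5.81, and the hepatocyte markers averaged 14.50 in every control and 14.44 to 14.56 in POMCMfn2KO. Correlations over all genes tested were 0.997 to 0.998 between controls and 0.979 to 0.995 between POMCMfn2KO arrays. POMCMfn2KO 2 and 3 stood apart by pancreatic acinar genes, whose 15 matched markers of 19 averaged 10.16 and 10.37 there against 6.06 to 6.09 in the controls and 6.02 to 6.28 in the other POMCMfn2KO livers. Means of the neutrophil markers (control 6.36 to 6.46, POMCMfn2KO 5.58 to 5.85) and of the B and T cell markers (6.36 to 6.57 and 6.03 to 6.14) did not overlap between the groups, while those of Kupffer cells, endothelium, stellate cells, cholangiocytes and erythroid cells did. In the neutrophil and the B and T cell lists, 4 markers each were tested and 1 fell. The median differences were -0.16 and -0.11, and the lowest -1.56 and -1.87. No marker was at 0 on this scale, and the part of these cells in the results below was not tested. Liver Mfn2 was 9.84, 9.83 and 9.97 in the controls and 9.98, 9.37, 9.52, 9.68 and 9.48 in POMCMfn2KO, a difference that did not pass the test (limma adjusted p = 0.169).

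All values below are log2 levels, and each difference is the POMCMfn2KO mean minus the control mean with its standard error (SE), tested with limma's moderated test and adjusted by the Benjamini-Hochberg method over all 11986 genes at a threshold of 0.05. Of the 43 members, 2 rose (Cps1 and Cbs) and 2 fell (Glul and Haao), together 9.30%, where 18% of all genes tested passed, 7.02% upward and 10.9% downward. The median member difference was 0.01, beside -0.02 over all genes, with 22 members positive and 21 negative, and the median size of the difference regardless of sign was 0.13, beside 0.14. The differences ran from -0.87 for Oat to 0.44 for Tat, neither of which passed. All 5 POMCMfn2KO values lay above all 3 control values in 5 members (Cps1, Tat, Tdo2, Ahcy and Cbs) and below them in 3 (Glul, Haao and Uroc1), which is 18.6% of the members, where 28.5% of all genes had groups without overlap, 12% above and 16.5% below. At an unadjusted p under 0.05, 11 of the 43 members passed, beside 3966 of all 11986 genes tested.

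**Figure D1:**
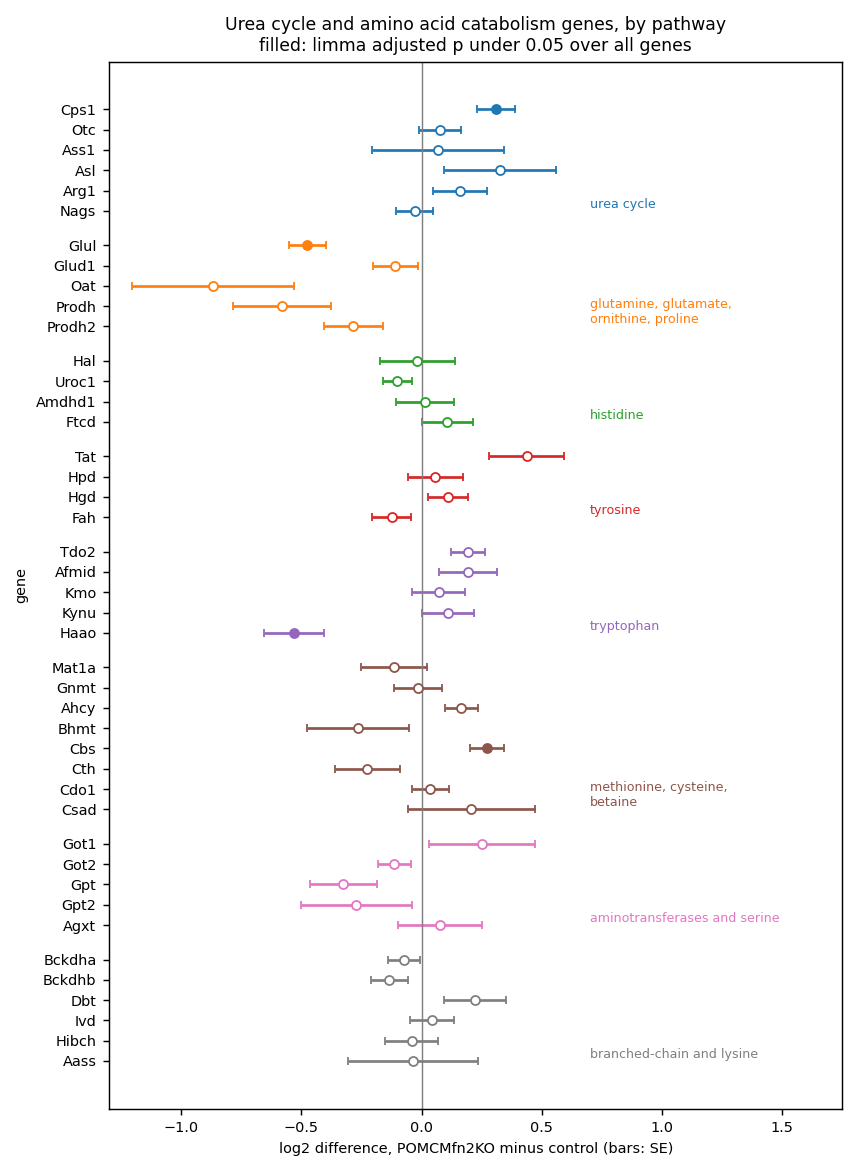
Log2 difference (POMCMfn2KO minus control, x axis) for the 43 tested genes, ordered by pathway on the y axis, with bars of 1 SE from the fit over 3 control and 5 POMCMfn2KO arrays and filled points for an adjusted p under 0.05. Cps1 and Cbs lie to the right of 0 and Glul and Haao to the left, and Oat has the lowest mean difference, -0.87, with an SE of 0.34.

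In the urea cycle the first enzyme rose and the other 5 did not pass. Cps1, carbamoyl phosphate synthetase, read 14.17, 14.18 and 14.19 in the controls and 14.68, 14.44, 14.50, 14.35 and 14.46 in POMCMfn2KO 1 to 5, so every POMCMfn2KO liver was above every control. The means were 14.18 ± 0.01 (SD, n = 3) and 14.49 ± 0.12 (SD, n = 5), a rise of 0.31 (SE 0.08), or 1.24-fold (limma adjusted p = 0.0264). The rise no longer passed without control 1, 2 or 3 (limma adjusted p = 0.0974, 0.0954 and 0.0867), without POMCMfn2KO 3 (0.0592), or without POMCMfn2KO 2 and 3 together (0.107).

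Argininosuccinate lyase, Asl, which splits argininosuccinate into arginine and fumarate, read 12.67, 12.60 and 12.66 in the controls and 13.79, 12.54, 12.82, 12.88 and 12.82 in POMCMfn2KO, a difference of 0.33 (SE 0.23) that did not pass (limma adjusted p = 0.365). POMCMfn2KO 1 stood far above the rest and POMCMfn2KO 2 was the lowest of the 8 arrays. Arginase, Arg1, which releases urea, read 14.14, 14.18 and 14.07 and then 14.65, 14.19, 14.22, 14.13 and 14.25, again with POMCMfn2KO 1 highest (difference 0.16, limma adjusted p = 0.366). Ornithine transcarbamylase, Otc, ran the other way on that array on its tested probe set. It read 12.91, 12.88 and 12.74 in the controls, 12.69 in POMCMfn2KO 1 and 12.95 to 13.00 in the other 4 (difference 0.08, limma adjusted p = 0.582). On its other probe sets, which differed by 0.18 and 0.23, POMCMfn2KO 1 was above every control. That array read 12.55 there against 12.40 to 12.54, and 7.08 against 6.64 to 6.85. On the brighter of these probe sets it was still the lowest POMCMfn2KO liver, beside 12.68 to 12.74 in the other 4. Nags, which makes the activator of carbamoyl phosphate synthetase, differed by -0.03 (limma adjusted p = 0.83).

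Argininosuccinate synthetase, Ass1, was represented in the test by a dimmer probe set at 7.27, 7.36 and 7.18 in the controls and 8.15, 7.37, 6.85, 6.78 and 7.54 in POMCMfn2KO (difference 0.07, limma adjusted p = 0.896). Its brighter probe set is annotated to Ass1 and Gm5424 together and was left out of the test for that reason. It read 12.31, 12.24 and 12.23 in the controls and 13.15, 12.22, 12.09, 12.40 and 12.01 in POMCMfn2KO, so POMCMfn2KO 1 was the highest array on both probe sets and the groups overlapped on both.

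The genes of glutamine, glutamate, ornithine and proline had lower means in POMCMfn2KO in all 5 tested, with a median difference of -0.48, and 1 of the 5 passed. Glul, glutamine synthetase, which in liver is made by the layer of hepatocytes around the central vein, read 13.42, 13.46 and 13.40 in the controls and 12.89, 12.94, 12.85, 13.15 and 12.92 in POMCMfn2KO. Every POMCMfn2KO liver was below every control, with POMCMfn2KO 4 the nearest to them. Glul fell by 0.48 on the log2 scale (SE 0.08), from 13.43 ± 0.03 (SD, n = 3) to 12.95 ± 0.12 (SD, n = 5), a 1.39-fold difference (limma adjusted p = 0.00467). The fall passed under all 19 alternatives tried, with differences from -0.53 to -0.37 and limma adjusted p from 0.000173 to 0.0422, and a second Glul probe set differed by -0.27. In whole liver, fewer cells of this layer and less Glul RNA in each cannot be told apart.

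Oat, ornithine aminotransferase, which like Glul is known to be concentrated around the central vein, read 13.76, 13.81 and 13.79 in the controls and 13.45, 12.51, 12.73, 13.80 and 12.09 in POMCMfn2KO. POMCMfn2KO 4 was at the control level while POMCMfn2KO 2, 3 and 5 were lower than any control by over 1 on the log2 scale. The difference of -0.87 (SE 0.34) did not pass with all arrays (limma adjusted p = 0.106) and passed without POMCMfn2KO 4, at -1.09 (limma adjusted p = 0.0211). Prodh, proline dehydrogenase, read 11.35, 11.40 and 11.36 in the controls and 11.37, 10.52, 10.42, 11.08 and 10.58 in POMCMfn2KO, a difference of -0.58 (SE 0.20, limma adjusted p = 0.0753). Here POMCMfn2KO 1 was at the control level, and without it the difference was -0.72 and passed (limma adjusted p = 0.00993). Prodh2, the hydroxyproline dehydrogenase, differed by -0.28 (limma adjusted p = 0.142), and Glud1, glutamate dehydrogenase, by -0.11 (limma adjusted p = 0.452), with control values of 13.10 to 13.18 inside the POMCMfn2KO range of 12.84 to 13.27.

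**Figure D2:**
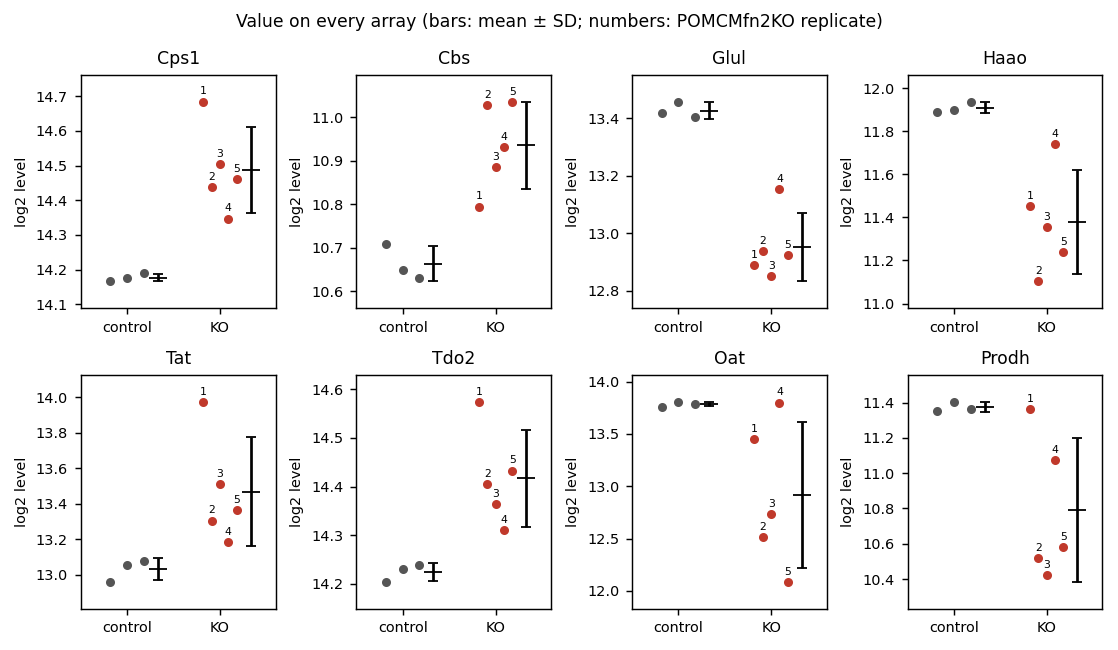
Log2 level on every array for 8 members (y axis, a scale for each panel), with grey points for the 3 controls, red points numbered 1 to 5 for POMCMfn2KO, and black bars for the mean ± SD. Cps1, Cbs, Tat and Tdo2 show no overlap between groups with POMCMfn2KO higher, Glul and Haao none with POMCMfn2KO lower, and in Oat replicate 4 and in Prodh replicate 1 lie at the control level.

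Other genes known for the hepatocytes around the central vein were read from a list of 17, of which 16 were tested. In that list 3 fell and 2 rose (31.3%, beside the 18% of all genes). Slc1a2, a glutamate transporter of the glutamine-synthesising layer, read 10.71, 10.68 and 10.67 in the controls and 9.95, 9.73, 9.61, 10.25 and 9.77 in POMCMfn2KO, and fell by 0.83 (limma adjusted p = 0.00393). With all its probe sets averaged, Slc1a2 differed by -0.23 and did not pass (limma adjusted p = 0.0916), so this fall rests on the brightest probe set. Rhbg, an ammonium transporter of the same layer, read 8.77, 8.79 and 8.99 and then 8.12, 7.80, 8.15, 8.21 and 7.65, and fell by 0.87 (limma adjusted p = 0.00388). On the probe sets used, the enzyme and the transporters for glutamate and ammonium were each lower in all 5 POMCMfn2KO livers than in any control, and in each of the 3 genes POMCMfn2KO 4 was the one nearest the controls. Lect2, a secreted protein controlled by Wnt signals in this zone, fell by 1.11 (limma adjusted p = 0.00885), and this call was lost without POMCMfn2KO 2 and 3 together (limma adjusted p = 0.0613).

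Not all genes of the zone moved that way. Cyp2e1, a cytochrome P450 of the wider pericentral zone named here after its values were seen, was 14.82 ± 0.01 (SD, n = 3) in the controls and 14.81 ± 0.05 (SD, n = 5) in POMCMfn2KO. Cyp1a2, another P450 of that zone, rose by 0.45 (limma adjusted p = 0.038), a call lost without any 1 control, without POMCMfn2KO 2, 3 or 5 and without POMCMfn2KO 2 and 3 together (limma adjusted p up to 0.151). Znrf3, which dampens Wnt signalling, rose by 0.35 (limma adjusted p = 0.00943) on its brightest probe set. It did not pass without POMCMfn2KO 2 and 3 together (limma adjusted p = 0.0632), nor with all its probe sets averaged, where it differed by 0.10 (limma adjusted p = 0.281). On the periportal side 2 of 9 tested genes rose (22.2%, beside 7.02% of all genes) and 0 fell, with differences from -1.01 for Aldh1b1, an aldehyde dehydrogenase (limma adjusted p = 0.0922), to 1.04 for Cdh1, E-cadherin (limma adjusted p = 0.0519), both named as the ends of that range. Pck1, the gluconeogenic enzyme phosphoenolpyruvate carboxykinase, rose by 0.36 (limma adjusted p = 0.0129), a call lost without control 1 or 3 or without POMCMfn2KO 2 and 3 together (limma adjusted p up to 0.0668), and Atp2a2, a calcium pump of the endoplasmic reticulum, by 0.77 (limma adjusted p = 0.00243). Albumin (Alb) was 15.26 ± 0.02 (SD, n = 3) in controls and 15.25 ± 0.01 (SD, n = 5) in POMCMfn2KO, and Sds was not analysed here.

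**Figure D3:**
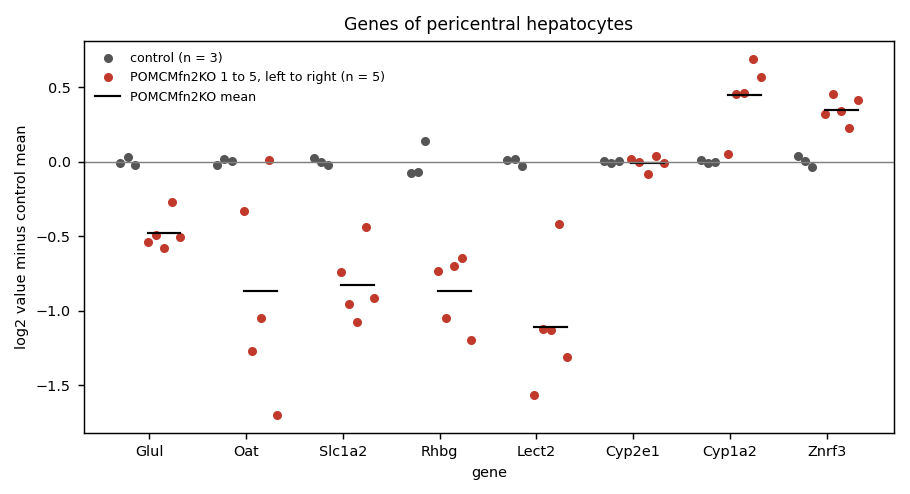
Log2 value minus the control mean (y axis) for 8 genes known for pericentral hepatocytes (x axis), with 3 grey control points, 5 red POMCMfn2KO points in order of replicate and a black line at the POMCMfn2KO mean. Glul, Slc1a2, Rhbg and Lect2 lie below 0 in all 5 POMCMfn2KO livers, Cyp2e1 lies around 0, Cyp1a2 and Znrf3 lie above 0, and Oat runs from the control level in POMCMfn2KO 4 to its lowest value in POMCMfn2KO 5.

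None of the 4 enzymes of histidine breakdown passed. Hal, histidase, which starts the pathway, was 12.09, 12.10 and 12.10 in the controls and 12.58, 12.06, 12.00, 12.01 and 11.75 in POMCMfn2KO, so its spread was wide in POMCMfn2KO and its mean differed by -0.02 (limma adjusted p = 0.95). Uroc1, urocanase, read 11.78 to 11.80 in the controls and 11.62 to 11.77 in POMCMfn2KO, below them without overlap, but the difference of -0.10 did not pass (limma adjusted p = 0.272). Its other probe set, not tested on its own, differed by -0.31, from 8.83 to 8.96 in the controls against 8.52 to 8.72 in POMCMfn2KO. With all its probe sets averaged, Uroc1 passed as a fall. Amdhd1 and Ftcd, which act later in the pathway, differed by 0.01 and 0.11 (limma adjusted p = 0.954 and 0.53). A second Amdhd1 probe set, not tested on its own, differed by -0.32. On it POMCMfn2KO 1, at 9.27, lay inside the control range of 9.23 to 9.37. On the tested probe sets POMCMfn2KO 1 was the highest array for Hal, Amdhd1 and Ftcd, and POMCMfn2KO 5 the lowest for the same 3 genes.

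None of the 4 tyrosine genes passed either. Tat, tyrosine aminotransferase, the rate-limiting enzyme of the pathway and a classical glucocorticoid- and glucagon-induced gene, read 12.96, 13.05 and 13.08 in the controls and 13.97, 13.30, 13.51, 13.18 and 13.36 in POMCMfn2KO. All 5 were above all controls, and the difference was 0.44 (SE 0.16), or 1.35-fold, with a limma adjusted p of 0.0842. It passed without POMCMfn2KO 1, the highest array, at 0.31 (limma adjusted p = 0.0302), and without POMCMfn2KO 4, the lowest of that group, at 0.51 (limma adjusted p = 0.0427). The enzymes after it differed by 0.06 (Hpd), 0.11 (Hgd) and -0.13 (Fah), with limma adjusted p of 0.771, 0.389 and 0.329.

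In the kynurenine pathway of tryptophan the enzyme that makes quinolinate's precursor fell. Haao, 3-hydroxyanthranilate dioxygenase, which stands on the route from tryptophan to NAD, read 11.89, 11.90 and 11.94 in the controls and 11.45, 11.10, 11.35, 11.74 and 11.24 in POMCMfn2KO. All 5 were below the controls, and POMCMfn2KO 4 was again the nearest. Haao fell by 0.53 (SE 0.13), from 11.91 ± 0.03 (SD, n = 3) to 11.38 ± 0.24 (SD, n = 5), a 1.45-fold difference (limma adjusted p = 0.0212). It no longer passed without control 1, 2 or 3 (limma adjusted p = 0.0760, 0.0775 and 0.0828) or without POMCMfn2KO 2 and 3 together (0.0946).

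At the head of the same pathway, Tdo2, the hepatic tryptophan dioxygenase, read 14.20, 14.23 and 14.24 in the controls and 14.57, 14.41, 14.36, 14.31 and 14.43 in POMCMfn2KO. The groups did not overlap, yet the difference of 0.19 (SE 0.07) did not pass (limma adjusted p = 0.0867), and its other 2 probe sets differed by 0.35 and 0.22. Afmid, the formamidase, differed by 0.19, Kmo, the monooxygenase, by 0.07 and Kynu, kynureninase, by 0.11, with limma adjusted p of 0.307, 0.705 and 0.52. For these 3 genes POMCMfn2KO 5 was the lowest of the 8 arrays.

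Of 8 genes of methionine, cysteine and betaine, 1 rose. Cbs, cystathionine β-synthase, which commits homocysteine to cysteine synthesis, read 10.71, 10.65 and 10.63 in the controls and 10.79, 11.03, 10.89, 10.93 and 11.03 in POMCMfn2KO. All 5 were above the controls, with POMCMfn2KO 1 the lowest of them, unlike most members. The rise was 0.27 (SE 0.07), from 10.66 ± 0.04 (SD, n = 3) to 10.93 ± 0.10 (SD, n = 5), or 1.21-fold (limma adjusted p = 0.0304), and a second Cbs probe set differed by 0.38. The call was lost without control 1, 2 or 3 (limma adjusted p = 0.0818, 0.113 and 0.112), without POMCMfn2KO 2 (0.0653) or 3 (0.0537), and without both (0.126).

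The steps around Cbs showed other patterns. Ahcy, which hydrolyses S-adenosylhomocysteine to homocysteine, read 14.12, 14.10 and 14.11 in the controls and 14.44, 14.20, 14.27, 14.24 and 14.22 in POMCMfn2KO, without overlap, and its difference of 0.16 did not pass (limma adjusted p = 0.13). Mat1a, which makes S-adenosylmethionine, read 14.16 to 14.21 in the controls, 14.49 in POMCMfn2KO 1 and 13.82 in POMCMfn2KO 5, with a mean difference of -0.11 (limma adjusted p = 0.613). Gnmt, which uses S-adenosylmethionine to methylate glycine, differed by -0.02 (limma adjusted p = 0.936). Bhmt, which remethylates homocysteine with betaine, read 14.86 to 14.89 in the controls and 15.04, 14.51, 14.64, 14.94 and 13.94 in POMCMfn2KO (difference -0.27, limma adjusted p = 0.425). Cth, which completes cysteine synthesis after Cbs, differed by -0.23 (limma adjusted p = 0.282), and Cdo1, which oxidises cysteine, by 0.04 (limma adjusted p = 0.781).

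Csad, the decarboxylase that leads from cysteine to taurine, had the reverse order of arrays to Bhmt at its ends. It read 11.28, 11.32 and 11.29 in the controls, 10.78 in POMCMfn2KO 1 and 12.21 in POMCMfn2KO 5, with 11.53, 11.77 and 11.22 in POMCMfn2KO 2, 3 and 4. The mean difference of 0.21 (SE 0.26) did not pass (limma adjusted p = 0.634).

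The aminotransferases, which feed alanine and aspartate carbon toward pyruvate and oxaloacetate, gave no call among 5 genes. Got1, the cytosolic aspartate aminotransferase, read 12.51, 12.59 and 12.55 in the controls and 13.42, 12.69, 12.87, 12.86 and 12.17 in POMCMfn2KO (difference 0.25, limma adjusted p = 0.466). Its mitochondrial partner Got2 differed by -0.11 (limma adjusted p = 0.285). Gpt, the cytosolic alanine aminotransferase, read 11.82, 11.78 and 11.83 and then 11.80, 11.33, 11.44, 11.72 and 11.14, a difference of -0.33 (limma adjusted p = 0.14).

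Gpt2, the mitochondrial alanine aminotransferase, read 12.92, 12.98 and 13.06 in the controls, 13.50 in POMCMfn2KO 1 and 12.26, 12.60, 12.68 and 12.54 in the other 4. One POMCMfn2KO liver was thus above every control and the other 4 below every control, and the difference of -0.27 did not pass (limma adjusted p = 0.451). Its 3 other probe sets differed by -0.33, -0.29 and -0.06. Without POMCMfn2KO 1, Gpt2 differed by -0.47 and Gpt by -0.40, and both passed (limma adjusted p = 0.0142 and 0.0427). Agxt, which transaminates alanine and glyoxylate, read 12.00 to 12.09 in the controls, 12.19 to 12.43 in POMCMfn2KO 1 to 4 and 11.53 in POMCMfn2KO 5 (difference 0.08, limma adjusted p = 0.804).

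None of the 6 tested genes of branched-chain amino acids and lysine passed. Bckdha, Bckdhb and Dbt encode subunits of the branched-chain ketoacid dehydrogenase, and differed by -0.07, -0.13 and 0.22 (limma adjusted p = 0.48, 0.263 and 0.266). Ivd and Hibch, which act further along leucine and valine breakdown, differed by 0.04 and -0.04 (limma adjusted p = 0.781 and 0.836). A second Ivd probe set, not tested on its own, differed by 0.39. Aass, the first enzyme of lysine breakdown, read 12.46, 12.47 and 12.43 in the controls and 13.25, 12.21, 12.39, 12.51 and 11.72 in POMCMfn2KO, a mean difference of -0.04 (limma adjusted p = 0.945) over arrays that ran from far above to far below the controls.

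This spread was a feature of the whole set. The SD was larger in POMCMfn2KO than in the controls for 43 of the 43 members, beside 80.0% of all genes tested. The median SD of the members was 0.03 in the controls and 0.21 in POMCMfn2KO, beside 0.07 and 0.14 over all genes. Among the 921 tested genes whose mean level was at least the lower quartile of the members (11.24), the SD was larger in POMCMfn2KO for 94.6%. Their median SD was 0.04 in the controls and 0.13 in POMCMfn2KO, and 21.4% of them passed the test between the groups.

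The spread had an order over the arrays. POMCMfn2KO 1 was the highest of the 8 arrays in 22 of the 43 members (51.2%, beside 19.4% of all genes), and POMCMfn2KO 5 was the lowest in 21 (48.8%, beside 16.2%). POMCMfn2KO 2 was the highest in 0 members and the lowest in 8. Relative to the control mean of each gene, the median member stood at 0.23 in POMCMfn2KO 1, -0.06 in POMCMfn2KO 2, -0.05 in POMCMfn2KO 3, 0.06 in POMCMfn2KO 4 and -0.19 in POMCMfn2KO 5, while the median of all genes lay between -0.02 and -0.01 on these 5 arrays.

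**Figure D4:**
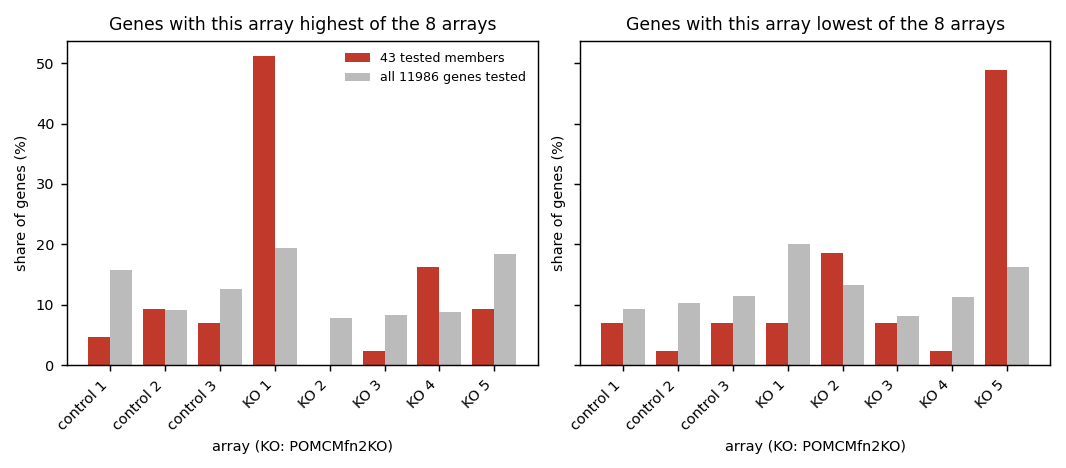
Share of genes (y axis, %) for which each of the 8 arrays (x axis) had the highest value (left) or the lowest value (right), for the 43 tested members in red and all 11986 genes tested in grey. POMCMfn2KO 1 holds the highest value in 51.2% of members and POMCMfn2KO 5 the lowest in 48.8%.

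The high values of POMCMfn2KO 1 were not spread evenly over the pathways. Its median deviation from the control mean was 0.51 over the 6 urea cycle genes, 0.36 over the histidine genes and 0.36 over the tyrosine genes, but -0.31 over the genes of glutamine, glutamate, ornithine and proline. POMCMfn2KO 5 had its lowest median, apart from the -0.50 of that same group, over the aminotransferases, at -0.45. In 4 members POMCMfn2KO 1 exceeded every one of the other 7 arrays by over 0.5. The share of all genes with such a margin was not computed, so this count cannot be read as particular to the members. Without POMCMfn2KO 1, 3 members rose (Cbs, Cps1 and Tat) and 5 fell (Glul, Gpt, Gpt2, Haao and Prodh). Calls over all genes also moved with 1 array left out, between 286 and 1156 risen and between 496 and 1642 fallen. The gain in calls can therefore not be read as particular to the members. POMCMfn2KO 1 was not one of the livers with high pancreatic genes, its acinar marker mean being 6.19.

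**Figure D5:**
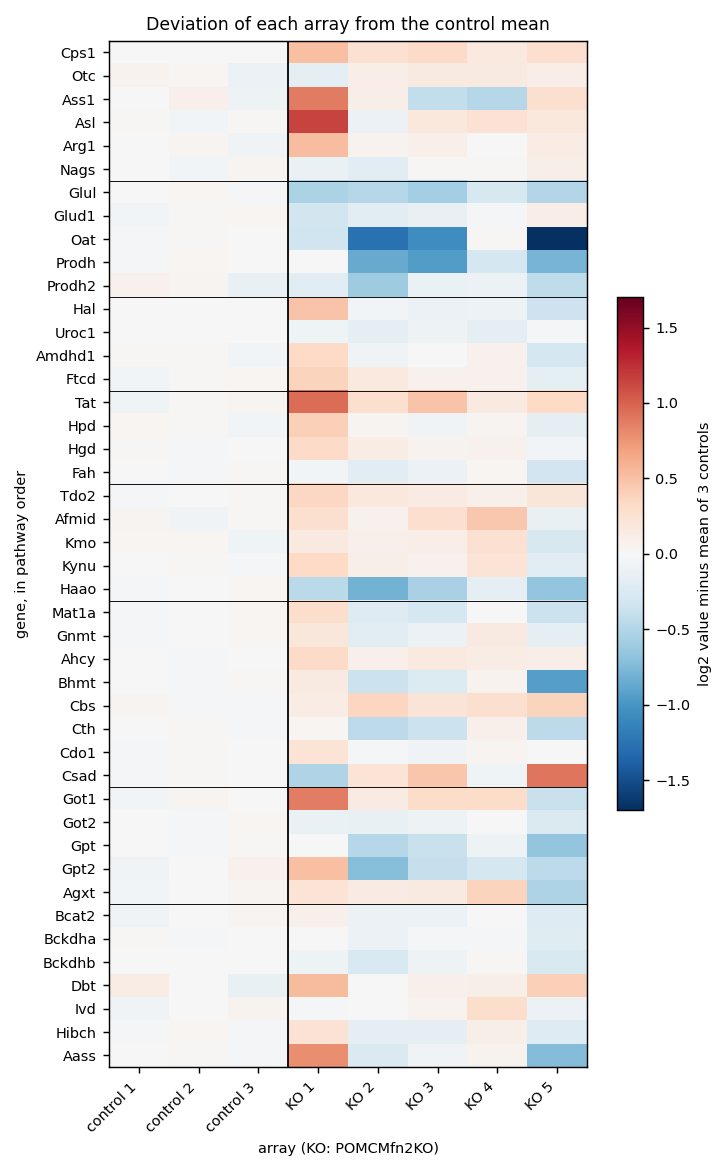
Log2 value minus the mean of the 3 controls (colour) for the 44 members with a probe set, untested Bcat2 included (rows, by pathway) on each of the 8 arrays (columns). The control columns are pale throughout, the POMCMfn2KO 1 column is mostly above the control mean outside the glutamine and proline genes, and the POMCMfn2KO 5 column is mostly below it.

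The regulators known for these genes were read from a list of 16, of which 15 were tested. Of these 15, 1 rose and 1 fell (13.3%, beside the 18% of all genes). Creb1, the factor that carries the cAMP signal of glucagon, rose by 0.68 (limma adjusted p = 0.00125). With all its probe sets averaged Creb1 was under the brightness filter and not tested, so this rise rests on the brightest probe set. Cebpa, a C/EBP factor that drives urea cycle genes, fell by 0.29 (limma adjusted p = 0.0355). The fall of Cebpa was lost without any 1 control, without POMCMfn2KO 3 or 5 and without POMCMfn2KO 2 and 3 together (limma adjusted p up to 0.133), and under quantile normalization (limma adjusted p = 0.0584). POMCMfn2KO 1 was the highest array for 5 of the 15 (33.3%, beside 19.4% of all genes). It was the lowest for 3, Cebpa among them (20%, beside 20.0% of all genes). Chosen after their values were seen, Cebpb, a C/EBP factor induced by hormones, read 11.51 to 11.66 in the controls, 12.38 in POMCMfn2KO 1 and 11.33 to 12.00 in the other 4, and Ppargc1a, a coactivator of gluconeogenic genes, read 8.11 to 8.45, 9.32 and 7.05 to 8.44.

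A further 77 genes of the same pathways were listed, of which 66 had a named probe set and 63 were tested. Of these, 4 rose and 7 fell (17.5%, beside the 18% of all genes), with a median difference of -0.18. Gch1, which makes the biopterin cofactor used to hydroxylate phenylalanine, read 11.10, 11.09 and 11.11 in the controls and 11.65, 11.93, 11.76, 11.69 and 11.92 in POMCMfn2KO, and rose by 0.69 (limma adjusted p = 0.00102). Aadat, an aminotransferase of kynurenine and of the lysine product aminoadipate, rose by 0.76 (limma adjusted p = 0.00631). Adi1, of the methionine salvage pathway, rose by 0.72 (limma adjusted p = 0.00603). Aldh18a1, which makes the proline and ornithine precursor from glutamate, rose by 0.40 (limma adjusted p = 0.0135), and lost the call without control 1 or 3 or without POMCMfn2KO 2 and 3 together (limma adjusted p up to 0.0680). With all its probe sets averaged Aldh18a1 was under the brightness filter and not tested.

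The genes of that list that fell included Asrgl1, an asparaginase, which fell by 0.61 (limma adjusted p = 0.00263), and Gcdh, the glutaryl-CoA dehydrogenase of lysine and tryptophan breakdown, which fell by 0.54 (limma adjusted p = 0.0118) and lost the call without control 1 or 2 (limma adjusted p up to 0.0595). Agxt2, a mitochondrial aminotransferase of glyoxylate, fell by 0.66 (limma adjusted p = 0.0365), and Mthfd1, of the folate one-carbon cycle, by 0.35 (limma adjusted p = 0.0377). These last 2 calls were lost without any 1 control, without POMCMfn2KO 2 or 3, and without both, and that of Mthfd1 also without POMCMfn2KO 5 (limma adjusted p up to 0.153). Mthfd1 also did not pass with all its probe sets averaged, at -0.25 (limma adjusted p = 0.0987). The number that fell in the list ranged from 1 without control 1 or 2 to 20 without POMCMfn2KO 4, against 7 with all arrays. Over all 11986 genes tested, 496 fell without control 1, 534 without control 2 and 1593 without POMCMfn2KO 4, against 1310 with all arrays. Calls over all genes thus moved in the same directions, and whether the list moved more than all genes was not tested.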

How the data were processed

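Total RNA of whole liver was hybridised to Affymetrix arrays, 1 for each mouse. The deposited values are log2 signals that the authors made with RMA from the affy package, per the submitters' processing notes, which give no versions. RMA corrects background, sets all arrays to one distribution and summarises probes, so a level compares arrays within a probe set and not genes with each other.

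Of 45101 probe sets, 64 were controls, 34945 had exactly 1 symbol in the platform annotation, 932 several and 9160 none. For each of 18193 genes the probe set with the highest mean was kept, and 6207 genes whose kept probe set averaged under 5.80, the median of all probe sets other than controls, were not tested because they were dim. The remaining 11986 were fitted with limma 3.58.1 in R 4.3.3 (lmFit and eBayes, no covariates, 2-sided); p-values were adjusted by Benjamini and Hochberg's method and called under 0.05. The scripts were tested on simulated data. The number of arrays (3 and 5) limits the precision.

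The members, gene lists and marker lists were chosen with earlier results of these data known, so no list was tested as a set. Named genes were all members and, in the other lists, at most 8 genes past the threshold by lowest p, with Alb and Sds whatever their test; Cyp2e1, Aldh1b1, Cdh1, Cebpb and Ppargc1a were added after their values were seen. Promoters are from RefSeq, and figures were drawn with matplotlib 3.10.9. Alternatives covered the filter, the choice of probe set, scaling, variance model, array weights, threshold, a replicate block and leaving out arrays.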

Additional observations from a re-analysis of the deposited data

Results flagged for a closer look

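In 5 of the 44 members with values, 1 POMCMfn2KO liver lay far from the other 4, measured as its gap to the nearest of them divided by the range of the 5 (critical value 0.710). For values from a normal distribution such a gap arises in about 1 of 20 groups. The share over all genes was not computed, so the count cannot be read as particular to these members. For Otc the gap was 0.836 of the range, with POMCMfn2KO 1 at 12.69 below 12.95 to 13.00 in the others. For Arg1 it was 0.759, with POMCMfn2KO 1 at 14.65 above 14.13 to 14.25. For Asl it was 0.727, with POMCMfn2KO 1 at 13.79 above 12.54 to 12.88. For Agxt it was 0.740, with POMCMfn2KO 5 at 11.53 below 12.19 to 12.43. For Glul it was 0.716, with POMCMfn2KO 4 at 13.15 above 12.85 to 12.94, still below every control. Of the 5 genes, 3 belong to the urea cycle, all with POMCMfn2KO 1 as the outlying liver, lower for Otc and higher for Arg1 and Asl. On a second Otc probe set POMCMfn2KO 1 was again the lowest of the 5, at 12.55 beside 12.68 to 12.74, though above every control. On a dimmer Otc probe set it was also above every control, and not the lowest of the 5, at 7.08 in a range of 6.89 to 7.10.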

How the results depend on the processing

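Of 817 member values under the alternatives, 777 kept their side of the threshold, 19 lost a call, 21 gained one and 0 called values changed sign; 10 members changed sign somewhere (32 values) without a call on either side. Glul kept its call under all 19 alternatives, Haao under 14, Cps1 under 13 and Cbs under 11. Members that rose numbered 2, and 5 with array weights, 0 at a threshold of 0.01, 4 at 0.1, and 0 to 3 with 1 array left out. Members that fell numbered 2, and 8 with array weights, 1 at 0.01, and 1 to 5 with 1 array left out. All genes that rose went from 842 to 1921 with array weights, 253 at 0.01, 1335 at 0.1 and 286 to 1156 with 1 array left out; all genes that fell went from 1310 to 2473, 449 at 0.01, and 496 to 1642. In the list of further pathway genes, 4 rose, and 7 with array weights and 3 to 6 with 1 array left out; 7 fell, and 4 with no filter, 30 with array weights, 1 at 0.01, 15 at 0.1 and 1 to 20 with 1 array left out. Without POMCMfn2KO 2 and 3 together, 239 genes rose and 401 fell, among them 0 and 1 members, and 2 of the further pathway genes fell. Array weights were lowest for POMCMfn2KO 1 (0.29) and highest for control 2 (3.00). Averaging all probe sets of a gene added Kynu (0.46, limma adjusted p = 0.0185) and Uroc1 (-0.20, limma adjusted p = 0.0211), and took the call from Slc1a2, Znrf3 and Mthfd1. Creb1 and Aldh18a1 were then under the filter and not tested. The cause of these changes was not tested, beyond fewer arrays and other thresholds.

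Replicate numbers are shared by the groups, but arrays of the same number showed little shared deviation (correlations of 0.04, 0.04 and -0.03). The main test did not pair them. With 3 shared numbers these correlations cannot show whether mice were paired by litter or batch, which the labels do not give. With the replicate block 1 member rose and 3 fell: Cbs lost its call (limma adjusted p = 0.120) and Oat gained one (limma adjusted p = 0.0362), and 12 of the further pathway genes fell. Among genes named from other lists, Aldh18a1, Cebpa and Cyp1a2 lost their calls under the block (limma adjusted p = 0.0732, 0.0641 and 0.102).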
